A study of Mus musculus with 18 samples.

Results

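Arginine tRNAs are the adapter RNAs that bring arginine to the ribosome. All rows of the count table that named a nuclear tRNA gene for arginine were taken, 24 gene copies in all. Copies of the same mature sequence family (an isodecoder, such as tRNA-Arg-CCG-1) were summed, which gave 19 isodecoders, and these were summed again into 5 anticodons. ACG had 6 gene copies in 3 isodecoders, CCG 3 copies in 3, CCT 5 copies in 4, TCG 5 copies in 4 and TCT 5 copies in 5, and all 19 isodecoders passed the filter on low counts in each fit. The table held 203513 features, of which 407 were tRNA gene copies in 218 isodecoders. Arginine tRNAs took 314775 of the 5982276 tRNA counts, or 5.26%.

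The small RNA libraries came from brains of 10-month-old mice on a C57BL/6 background, of which some were wild type (WT) and the others carried a long CAG repeat in both alleles of Atxn2 (Atxn2-CAG100-KIN, here KIN). The knock-in allele models the expansion that causes spinocerebellar ataxia type 2. By the study's methods, KIN and WT mice were littermates of the same sex, and the pairs sequenced included both sexes. The main tests of KIN against WT used neither the sex nor the pairs. CD11b beads, in the study's methods, first removed microglia from each dissociated brain, ACSA-2 beads then removed astrocytes, and what other beads left unbound was collected as neurons. Each of the 6 groups (astrocytes, microglia and neurons, from WT and from KIN mice) had 3 libraries, and their totals ranged from 1211118 to 4316748 counts. Nothing in the labels says that libraries with the same number came from the same brain, and p-values measure the spread between these libraries. Each brain gave several fractions, so libraries of different fractions may not be independent. The main tests between fractions did not take this into account. All values are amounts relative to the rest of a library, so fewer cells of a type and less RNA per cell cannot be told apart.

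Marker miRNAs matched the microglia label better than the astrocyte and neuronal labels. The 3 myeloid miRNAs summed to 2835 to 5914 counts per 1000000 counts of the library (CPM) in microglia, 10.2 to 48.5 in astrocytes and 42.9 to 377 in neurons. The 3 neuronal miRNAs summed to only 48.7 to 228 CPM in the neuronal libraries against 1036 to 3150 in the astrocyte libraries. The 2 miR-9 miRNAs, markers of astrocytes and the neural lineage, summed to 5835 to 9496 CPM in astrocytes and 964 to 4079 in neurons. Astrocyte libraries also held the most of the 2 oligodendrocyte miRNAs, at 830 to 2148 CPM. Neuronal WT replicate 2 stood apart from the other neuronal libraries, with 74.1 CPM of the 2 oligodendrocyte miRNAs against 0 to 5.97 in the others, and with 10.6% of its counts on tRNA against 2.94% to 5.88%. Its 3 neuronal miRNAs were the highest of the neuronal libraries too, at 228 CPM against 48.7 to 183 in the others. Microglia WT replicate 2 stood apart in its tRNA, with arginine at 5.45% of tRNA counts against 3.49% and 3.39% in the other WT libraries. Microglia KIN replicate 1 did so too, at 6.59% against 3.97% and 3.98%. Microglia WT replicate 2 also held less neuronal miRNA than the other WT microglia libraries, at 60.7 CPM against 159 and 155. Its 2 miR-9 miRNAs summed to 82.3 CPM against 211 and 245. The arginine sums that rest on one of these libraries are also given without it, with exceptions for microglia KIN replicate 1. The KIN fractions were not compared with each other without that library. The differences in KIN effect between fractions are not given without it either.

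Arginine is encoded by more codons than most amino acids, and each anticodon family reads a part of them. In tRNA with the ACG anticodon, the first anticodon base is deaminated to inosine by the Adat2 and Adat3 enzyme, which lets it pair with several bases at the end of the codon, while the U at the same place in TCT and TCG tRNA is modified by the Elongator complex. The TCT genes of the mouse are unusual among arginine genes in that most carry a short intron, which the Tsen endonuclease removes. One of them, tRNA-Arg-TCT-4, is known as n-Tr20 and is expressed mainly in the central nervous system. It is best known from C57BL/6J mice, in which a base change hampers its processing and the loss of the ribosome rescue factor Gtpbp2 then leads to stalled ribosomes and neurodegeneration.

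The genes were located by a search for the tRNA cloverleaf in the mouse genome build GRCm39, which the files name mm39. The search found 24 arginine genes with the same number per anticodon as the table. An isodecoder was tied to a position only where its copy number, length or intron fitted no other. Sequences are given 5′ to 3′ on the strand of the gene, and capitals mark the anticodon. The 3 ACG isodecoders are shown first because they are nearly the same molecule.
tRNA-Arg-ACG-1: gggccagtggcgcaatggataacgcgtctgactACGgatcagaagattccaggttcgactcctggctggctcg
tRNA-Arg-ACG-2: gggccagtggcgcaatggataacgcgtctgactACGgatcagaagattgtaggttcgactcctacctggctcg
tRNA-Arg-ACG-3: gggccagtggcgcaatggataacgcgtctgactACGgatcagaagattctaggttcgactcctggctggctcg

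tRNA-Arg-ACG-1 has copies at chr13:23630962-23631034, chr13:23684692-23684764 (both minus strand) and chr14:54755153-54755225 (plus strand). tRNA-Arg-ACG-3 has copies at chr9:123358490-123358562 and chr13:22205314-22205386, and tRNA-Arg-ACG-2 lies at chr3:19682123-19682195, all on the minus strand. With positions counted from 1 at the 5′ end, ACG-3 differs from ACG-1 by C50T alone, and ACG-2 by C49G, C50T, G64A and G65C. A fragment that ends before position 49 thus reads the same in all 3, and counts of such reads on single ACG isodecoders are uncertain.

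The 3 genes with a CCG anticodon each have their own sequence, shown here by position because nothing tied them to the numbers used in the table.
chr11:106903692-106903764, plus strand: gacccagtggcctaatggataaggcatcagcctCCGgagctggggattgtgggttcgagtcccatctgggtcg
chr13:21399628-21399700, minus strand: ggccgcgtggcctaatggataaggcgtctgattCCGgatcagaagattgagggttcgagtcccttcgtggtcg
chr17:23769237-23769309, minus strand: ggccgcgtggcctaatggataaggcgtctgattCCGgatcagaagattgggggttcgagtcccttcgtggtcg

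The genes on chromosomes 13 and 17 differ by 1 base, and the gene on chromosome 11 differs from each of them at 15 of 73 positions. The TCT genes that could be placed, and the TCG isodecoder that differed between microglia and astrocytes, read as follows.
tRNA-Arg-TCT-1: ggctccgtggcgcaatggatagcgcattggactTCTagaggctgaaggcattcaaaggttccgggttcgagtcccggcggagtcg
tRNA-Arg-TCT-4: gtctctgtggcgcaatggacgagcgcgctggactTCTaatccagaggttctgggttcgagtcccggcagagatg
tRNA-Arg-TCG-3: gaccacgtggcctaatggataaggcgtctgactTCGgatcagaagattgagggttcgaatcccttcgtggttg

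tRNA-Arg-TCT-1 lies at chr3:122086597-122086681 on the minus strand and its 85 bases include an intron of 12. tRNA-Arg-TCT-4 lies at chr1:173217895-173217968 on the plus strand, has 74 bases and no intron, and is the only TCT gene without one. The TCT-4 sequence shown is that of the genome build. Whether these mice carried the base change named above is not given in the sources used here. tRNA-Arg-TCG-3 has a copy at chr13:21463866-21463938 on the plus strand and one at chr13:23688150-23688222 on the minus strand. TCT-2, which is not shown, lies at chr11:69014308-69014394 on the minus strand, opposite the 3′ UTR of Hes7.

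A few isodecoders made up most of the arginine pool. Over the 18 libraries tRNA-Arg-CCT-4 had 82773 counts, tRNA-Arg-CCG-3 68332 and tRNA-Arg-TCT-1 42764, together 61.6% of arginine tRNA counts. The smallest were TCT-2 with 859, TCT-4 with 698 and TCT-5 with 642 counts. In WT astrocytes, levels scaled to 73 bases of listed gene length ran from 1632 ± 79.6 CPM (SD, n = 3) for CCT-4 down to 8.53 ± 2.21 for TCT-5. CCG-3 followed CCT-4 at 1299 ± 56.0, and the ranges of these 2 did not overlap. TCT-1 (730 ± 55.6), ACG-1 (640 ± 100) and ACG-3 (609 ± 91.4) came next and each overlapped its neighbour in that order. TCG-1 stood at 328 ± 52.8, apart from the isodecoders on either side. CCT-2 (225 ± 28.6), TCG-3 (223 ± 39.6) and TCG-2 (192 ± 28.6) overlapped, as did CCG-1 (91.3 ± 15.0) with CCG-2 (89.7 ± 11.5). CCT-4 was the highest in every group except KIN neurons, where CCG-3 stood at 411 ± 72.1 CPM per 73 bases, within the range of CCT-4 at 392 ± 113. TCT-4 was the lowest in microglia, at 2.98 ± 0.379 in WT and 2.58 ± 0.942 in KIN, and TCT-2 was the lowest in neurons.

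**Figure D1:**
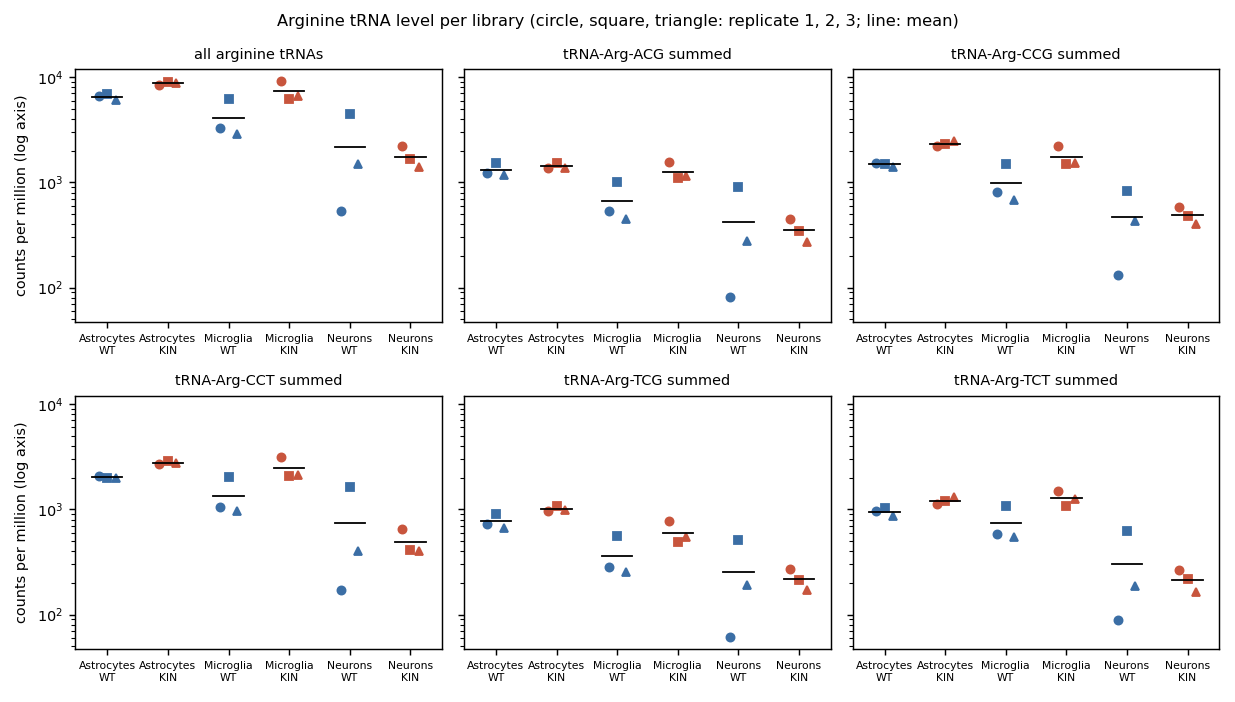
Arginine tRNA level in each library, in CPM on a log axis, for the sum of all arginine tRNAs and for each anticodon. Circles, squares and triangles are replicates 1, 2 and 3, lines are means, blue is WT and red is KIN. WT replicate 2 lies above the other WT libraries of microglia and of neurons in every panel, and astrocytes lie between 6113 and 9015 CPM in the panel of all arginine tRNAs.

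Summed over all isodecoders, arginine tRNA stood at 6560, 6965 and 6113 CPM in the 3 WT astrocyte libraries and at 8358, 9015 and 8892 in KIN astrocytes. WT microglia gave 3265, 6164 and 2896 CPM and KIN microglia 9241, 6240 and 6591. WT neurons gave 534, 4516 and 1487 CPM and KIN neurons 2214, 1660 and 1412. The 2 genotypes did not overlap in astrocytes or in microglia, where replicate 2 of WT came close to the lowest KIN library, and they overlapped widely in neurons. By anticodon, CCT was the most abundant in WT astrocytes at 2031 ± 56.0 CPM (SD, n = 3), before CCG (1480 ± 62.4), ACG (1315 ± 196), TCT (952 ± 80.6) and TCG (767 ± 120).

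Transcripts that contain an arginine tRNA gene were counted too. Per the study's methods, reads not placed on a tRNA went on to later rounds of alignment that ended with the Ensembl transcripts, and counting did not use the strand. By the GENCODE vM39 annotation, an exon of Gm17494-202, a retained-intron transcript, contains the TCT-1 gene on the same strand, an exon of Gm57036-201, a long noncoding RNA, contains the chromosome 9 copy of ACG-3 on the same strand, and an exon of Hes7-201, the transcript of a segmentation clock regulator, contains TCT-2 on the opposite strand. These 3 transcripts held 47326, 36550 and 38191 counts. Their sum was equal to 38.8% of the arginine tRNA counts, which do not include them. Gm17494-202 had 1.11 times the counts of TCT-1, Gm57036-201 1.34 times those of ACG-3 and Hes7-201 44.5 times those of TCT-2. Where along these transcripts the reads lie is not given in the files. Adding them to their isodecoders moved the summed log2 fold change in astrocytes from 0.57 to 0.52 and left the count of called isodecoders as it was in every comparison below but WT neurons against WT astrocytes, where it went from 4 to 6.

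**Figure D2:**
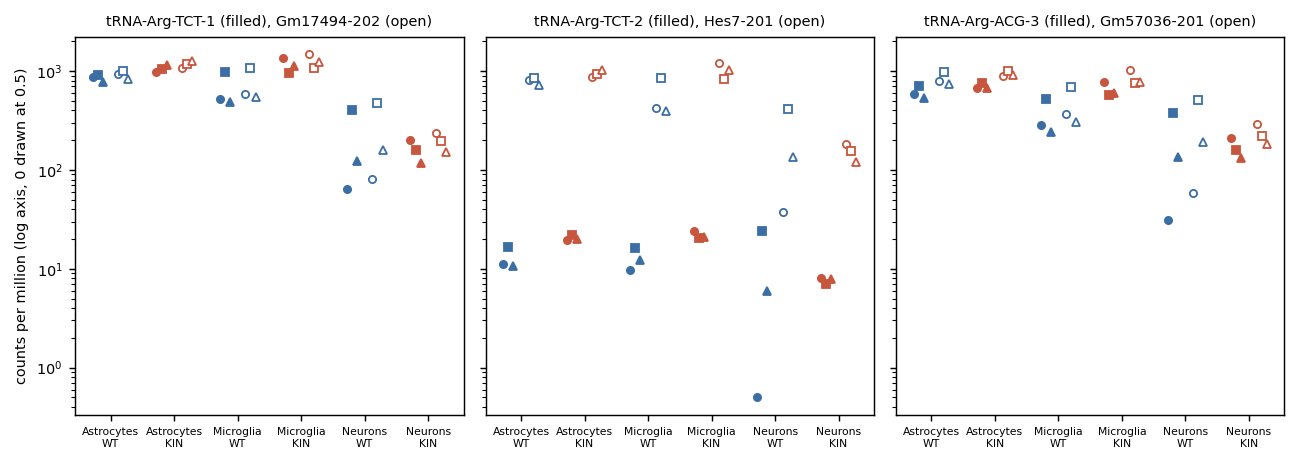
Levels of tRNA-Arg-TCT-1, tRNA-Arg-TCT-2 and tRNA-Arg-ACG-3 (filled) and of the transcript whose exon contains each gene (open) in every library, in CPM on a log axis. Circles, squares and triangles are replicates 1, 2 and 3, blue is WT, red is KIN, and a value of 0 is drawn at 0.5. Gm17494-202 and Gm57036-201 follow the level of their isodecoder across the 6 groups, while Hes7-201 stands far above TCT-2 in every library.

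The level of an arginine isodecoder in microglia relative to astrocytes was examined first in WT mice. tRNA-Arg-CCG-1, tRNA-Arg-TCT-4 and tRNA-Arg-TCG-3 were lower in microglia, and their ranges in the 2 fractions did not overlap. These 3 of the 19 isodecoders were called lower by edgeR (adjusted p at most 0.05 and at least 1 on the log2 scale), and 0 were called higher, while 20.7% of all features tested were called lower in the same fit. The share of arginine isodecoders called was thus close to the background.

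CCG-1 stood at 89.7, 107 and 77.1 CPM in WT astrocytes and at 11.5, 18.1 and 14.2 in WT microglia. Its log2 fold change was −2.53 ± 0.35 (SE, n = 3 against 3, edgeR adjusted p 0.000189). CCG-2, with the same anticodon, stood at 84.0, 103 and 82.3 CPM in WT astrocytes and at 62.5, 128 and 54.5 in WT microglia. Its log2 fold change was 0.03 ± 0.40 (edgeR adjusted p 0.965). The pair was thus level in astrocytes, whereas CCG-2 lay above CCG-1 in each microglia library. CCG-1 made up 6.16% ± 0.90 of CCG counts in WT astrocytes and 1.57% ± 0.45 in WT microglia (SD, n = 3 each).

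TCT-4, the isodecoder of the central nervous system, stood at 17.5, 22.4 and 14.3 CPM in WT astrocytes and at 2.88, 3.45 and 2.73 in WT microglia, the latter from 10, 12 and 10 counts. Its log2 fold change was −2.49 ± 0.42 (edgeR adjusted p 0.000784), while TCT-1 with the same anticodon had −0.21 ± 0.34 (edgeR adjusted p 0.651). TCG-3 stood at 210, 268 and 192 CPM in WT astrocytes and at 58.7, 83.8 and 50.4 in WT microglia, a difference of −1.67 ± 0.33 on the log2 scale (edgeR adjusted p 0.00200). The other TCG isodecoders gave −0.61 ± 0.40 (TCG-1), −1.003 ± 0.39 (TCG-2) and 0.02 ± 0.35 (TCG-4), none past the threshold.

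The same 3 isodecoders, and no other, were called lower in microglia among the KIN libraries, where 21.7% of features were called lower. There the log2 fold change was −2.03 ± 0.22 for CCG-1, −2.03 ± 0.34 for TCT-4 and −1.46 ± 0.21 for TCG-3, with edgeR adjusted p of 1.1e-05, 0.000407 and 0.00014. Markers of other cell types moved with this contrast. In WT, the 3 neuronal miRNAs summed to 1354 to 3150 CPM in astrocytes and 60.7 to 159 in microglia, and the 2 oligodendrocyte miRNAs to 830 to 1496 and 19.3 to 21.5, and the 2 miR-9 miRNAs to 5835 to 9496 and 82.3 to 245, with none of these miRNAs at 0. Their part in the result was not tested.

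**Figure D3:**
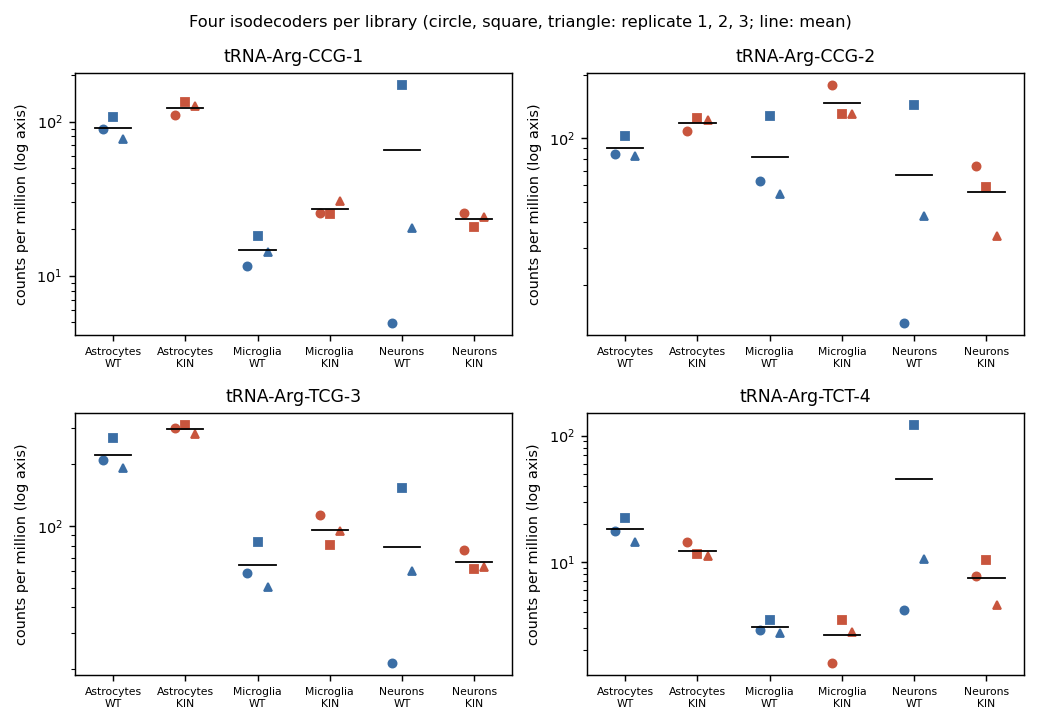
Level of CCG-1, CCG-2, TCG-3 and TCT-4 in each library, in CPM on a log axis. Circles, squares and triangles are replicates 1, 2 and 3, lines are means, blue is WT and red is KIN. CCG-1, TCG-3 and TCT-4 lie lower in all microglia libraries than in all astrocyte libraries, CCG-2 does not, and TCT-4 reaches 121 CPM in neuronal WT replicate 2 alone.

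**Figure D4:**
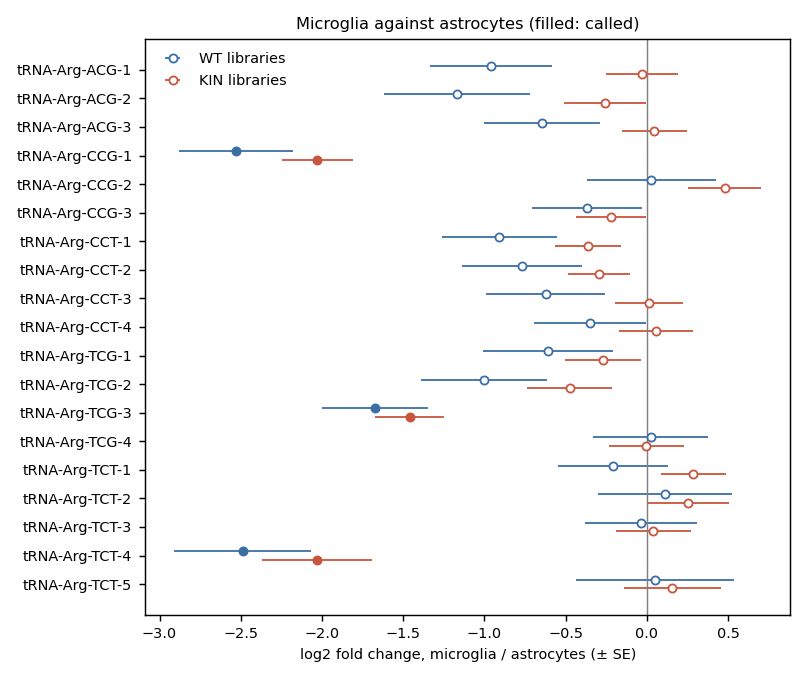
Log2 fold change of each arginine isodecoder, microglia over astrocytes, with its standard error, in the WT libraries (blue) and the KIN libraries (red). Filled points were called. CCG-1, TCT-4 and TCG-3 are filled in both genotypes, while the other 16 isodecoders lie between −1.17 and 0.48.

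Over all arginine isodecoders the median log2 fold change of WT microglia against WT astrocytes was −0.62, with 15 of 19 below 0, beside −0.25 for all features and −0.36 for all tRNA isodecoders. Lysine isodecoders had a median of −0.22 and threonine isodecoders −1.43. The summed arginine tRNA gave −0.51 ± 0.34 (edgeR adjusted p 0.247). By anticodon the values were −0.81 ± 0.36 for ACG, −0.41 ± 0.34 for CCG, −0.43 ± 0.34 for CCT, −0.92 ± 0.36 for TCG and −0.21 ± 0.33 for TCT, and none was called. Without microglia WT replicate 2, 13 isodecoders were called lower against 20.2% of all features, and the sum was −1.16 (edgeR adjusted p 9.86e-05).

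WT neurons held less arginine tRNA than WT astrocytes, and less of most other tRNA. The median log2 fold change was −1.06 over arginine isodecoders, −0.40 for all features and −0.81 for all tRNA isodecoders. Lysine isodecoders had a median of −0.96 and threonine isodecoders −1.58. The log2 fold change of the sum was −1.72 ± 0.59 (edgeR adjusted p 0.0416), and CCG (−1.81 ± 0.52), TCG (−1.74 ± 0.59) and TCT (−1.79 ± 0.58) were called lower, whereas ACG (−1.77 ± 0.66, edgeR adjusted p 0.0578) and CCT (−1.58 ± 0.64, edgeR adjusted p 0.0733) missed the threshold. Of the 19 isodecoders, 4 were called lower against 19.6% of all features. They were TCT-1 (−2.23 ± 0.58), TCG-2 (−2.18 ± 0.58), CCG-3 (−2.10 ± 0.46) and CCT-4 (−2.04 ± 0.55), with edgeR adjusted p of 0.0183, 0.0200, 0.00867 and 0.0212, and they include the 3 most abundant members.

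These values rest on a group with a wide spread. CCT-4 stood at 1718, 1560 and 1620 CPM in WT astrocytes and at 131, 849 and 319 in WT neurons. TCT-4 stood at 4.13, 121 and 10.5 CPM in WT neurons, so that its fold change against astrocytes was 1.21 ± 0.94 with neuronal WT replicate 2 and −1.55 (edgeR adjusted p 0.0408) without it. Without that library 18 isodecoders were called lower in WT neurons against 22.9% of all features. In the KIN libraries 18 were also called lower in neurons than in astrocytes, all except TCT-5, against 24.3% of all features. The sum kept an edgeR adjusted p at or under 0.05 in 1 of the 6 fits that left out a library, that without neuronal WT replicate 2 (−2.98), and reached up to 0.15 in the others. When tRNA alone set the scale, the sum in WT was −0.85 (edgeR adjusted p 0.44) and 0 isodecoders were called, and leaving out WT astrocyte replicate 1, 2 or 3, or neuronal WT replicate 3, left 1 call each. The 2 oligodendrocyte miRNAs (0 to 74.1 CPM in WT neurons) and the 2 miR-9 miRNAs (964 to 2265) were also lower there than in WT astrocytes. So were the 3 neuronal miRNAs, at 48.7 to 228 CPM in WT neurons and 1354 to 3150 in WT astrocytes. The 2 endothelial miRNAs stood at 5.78 to 29.6 and 346 to 563. The 3 myeloid miRNAs were higher in WT neurons, at 42.9 to 225 CPM against 10.2 to 12.6. The part of these markers in the result was not tested.

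Between WT neurons and WT microglia, 3 isodecoders were called against 30.1% of all features. TCT-1 (−2.003 ± 0.65, edgeR adjusted p 0.0368) and CCG-3 (−1.73 ± 0.56, edgeR adjusted p 0.0374) were lower in neurons and TCT-4 was higher (3.72 ± 1.04, edgeR adjusted p 0.0201). None of the 3 calls held throughout when 1 library was left out. TCT-1 passed only without neuronal WT replicate 2, CCG-3 only without that library or microglia WT replicate 3, and TCT-4 only without neuronal WT replicate 1 or 3. TCT-1 and CCG-3 also missed the threshold when tRNA alone or the library totals set the scale. The call of TCT-4 was lost without neuronal WT replicate 2, where its fold change was 1.11 (edgeR adjusted p 0.175), and in the KIN libraries, where it was 0.96 (edgeR adjusted p 0.0715). The sum gave −1.20 ± 0.63 (edgeR adjusted p 0.165) with all libraries, −0.63 (edgeR adjusted p 0.517) without microglia WT replicate 2, and −2.31 without neuronal WT replicate 2, when 14 isodecoders were called lower against 18.7% of all features. By anticodon the log2 fold changes were −0.94 for ACG, −1.39 for CCG, −1.14 for CCT, −0.80 for TCG and −1.57 for TCT, with none called. The median was −0.57 over arginine isodecoders, beside −0.10 for all features and −0.52 for all tRNA isodecoders. In the KIN libraries 17 isodecoders, all except CCG-1 and TCT-4, were called lower in neurons than in microglia, against 24.9% of all features, and the sum was −2.62. In WT, the 3 myeloid miRNAs summed to 42.9 to 225 CPM in neurons and 2835 to 3389 in microglia. The 2 miR-9 miRNAs summed to 964 to 2265 and 82.3 to 245, while the 3 neuronal miRNAs overlapped, at 48.7 to 228 and 60.7 to 159. What these markers had to do with the result was not tested.

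KIN was next compared with WT within each fraction. In astrocytes summed arginine tRNA was higher in KIN by a small amount, a direction that turned when mature miRNA alone set the scale. The summed level changed by 0.57 ± 0.09 on the log2 scale (SE, n = 3 against 3, edgeR adjusted p 0.0104), which lies below the minimum of 1 for a call, and the median over isodecoders was 0.55, with 17 of 19 above 0. The median was −0.20 for all features, 0.25 for all tRNA isodecoders, 0.71 for lysine, 0.86 for threonine and −0.26 for the 22 mitochondrial tRNAs. With library sizes set by mature miRNA alone the median of all features was −0.94 and the sum of arginine tRNA was −0.18. By that scale 16 of 19 isodecoders lay below 0. The arginine median exceeded the median of all features by 0.75 in the first scaling and by 0.76 in this one. A change of scale moves all features by nearly the same amount, so this difference cannot show which direction holds.

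No arginine isodecoder was called in astrocytes, where 8.23% of all features were called, and 14 had an unadjusted p under 0.05. At an adjusted p of at most 0.05 with no minimum size, 5 isodecoders were higher in KIN and 0 lower, while 4.62% of all features were higher by that rule. This count was 16 without WT replicate 2, 2 without any other single library, and 1 when tRNA alone set the scale. It was 11 by DESeq2, 6 with no filter on low counts and 3 when library totals set the scale. It was 0 in 1 fit of all 18 libraries and when mature miRNA set the scale, where 2 were lower. CCG-3 stood at 1361, 1283 and 1253 CPM in WT and at 2015, 2058 and 2214 in KIN, a difference of 0.84 ± 0.09 on the log2 scale (edgeR adjusted p 0.00201). CCT-4 stood at 1718, 1560 and 1620 CPM in WT and at 2226, 2386 and 2286 in KIN, or 0.64 ± 0.09 (edgeR adjusted p 0.00412). TCT-3 stood at 60.7, 69.3 and 53.4 CPM in WT and at 100.9, 100.9 and 99.96 in KIN, or 0.86 ± 0.18 (edgeR adjusted p 0.0192). In each of these the lowest KIN library lay well above the highest WT library. TCT-1 (0.47 ± 0.12) and TCG-1 (0.58 ± 0.16) also passed, with edgeR adjusted p of 0.0382 and 0.0461.

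The ranges of WT and KIN astrocytes did not overlap for 12 isodecoders that were higher in KIN, as for 10.3% of all features, and for 2 that were lower, as for 26.3% of all features. The lower ones were ACG-2, at 65.5, 73.1 and 60.1 CPM in WT and 46.8, 47.1 and 54.0 in KIN, and TCT-4, at 17.5, 22.4 and 14.3 in WT and 14.2, 11.4 and 11.0 in KIN. Neither passed the test, with log2 fold changes of −0.28 ± 0.19 and −0.43 ± 0.28 (edgeR adjusted p 0.317 and 0.309). By anticodon CCG (0.81 ± 0.09), CCT (0.60 ± 0.09), TCG (0.54 ± 0.14) and TCT (0.49 ± 0.12) had an edgeR adjusted p of 0.00232, 0.00498, 0.044 and 0.035, and ACG gave 0.26 ± 0.14 (edgeR adjusted p 0.213). The 2 oligodendrocyte miRNAs summed to 830 to 1496 CPM in WT and 1510 to 2148 in KIN astrocytes, and the 3 myeloid miRNAs to 10.2 to 12.6 and 24.99 to 48.5. WT replicate 2 was the highest WT library for the oligodendrocyte sum, at 1496 CPM against 830 and 1061. It was so too for the 3 neuronal miRNAs (3150 against 1354 and 1449) and the 2 miR-9 miRNAs (9496 against 5835 and 6899). The part of these markers in the result was not tested. Leaving out 1 library at a time kept the sum between 0.48 and 0.65, but its edgeR adjusted p stayed at or under 0.05 only without WT replicate 2 and without KIN replicate 1.

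**Figure D5:**
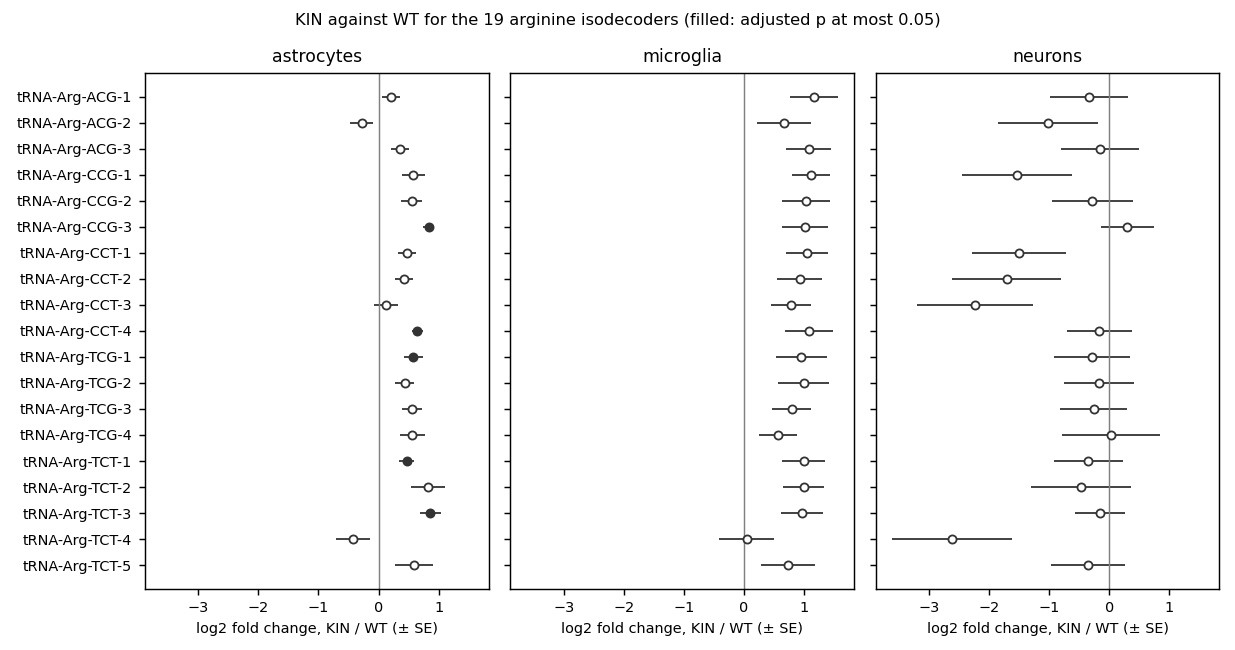
Log2 fold change of KIN over WT for the 19 arginine isodecoders, with its standard error, in the 3 fractions. Filled points have an edgeR adjusted p of at most 0.05. Of the 19, 17 lie above 0 in astrocytes, where scaling to mature miRNA puts 16 below 0, and all lie above 0 in microglia, where scaling to tRNA alone puts 6 below 0.

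In microglia every arginine isodecoder had a positive log2 fold change, with a median of 0.99 beside −0.09 for all features and 0.91 for all tRNA isodecoders. When tRNA alone set the scale, 6 of the 19 turned below 0. With all libraries 0 isodecoders were called, where 6.35% of all features were, 0 passed at an adjusted p of at most 0.05 alone (6.87% of all features), and 15 had an unadjusted p under 0.05. The sum gave 1.03 ± 0.37 (edgeR adjusted p 0.115). The highest values were those of ACG-1 (1.17 ± 0.40, edgeR adjusted p 0.106) and CCG-1 (1.11 ± 0.32, edgeR adjusted p 0.0641), and the lowest were those of TCG-4 (0.57 ± 0.31) and TCT-4 (0.04 ± 0.46). By anticodon the log2 fold change was 1.10 for ACG, 1.06 for CCT, 1.02 for CCG, 0.98 for TCT and 0.92 for TCG.

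ACG-1 stood at 231, 454 and 196 CPM in WT microglia and at 741, 485 and 512 in KIN microglia. CCG-1 stood at 11.5, 18.1 and 14.2 CPM in WT and at 25.4, 25.3 and 30.7 in KIN. In both, replicate 2 was the highest WT library. The ranges did not overlap for 10 isodecoders, all higher in KIN, against 6.58% of all features. Without WT replicate 2, 17 isodecoders were called higher, all except TCG-4 and TCT-4, against 5.23% of all features, and the sum was 1.66 (edgeR adjusted p 0.00172). Without KIN replicate 1 the sum was 0.76 (edgeR adjusted p 0.272), and without WT replicate 1 it was 0.82 (edgeR adjusted p 0.437). The share of tRNA in the library moved with this contrast, at 8.53% to 11.3% of counts in WT and 14.0% to 16.6% in KIN, while arginine took 3.49%, 5.45% and 3.39% of tRNA counts in WT and 6.59%, 3.97% and 3.98% in KIN. Markers of other cells moved with it too, without overlap. The 3 neuronal miRNAs summed to 60.7 to 159 CPM in WT and 47.0 to 55.1 in KIN, the 2 miR-9 miRNAs to 82.3 to 245 and 59.1 to 68.6, and the 2 miRNAs of mural cells to 145 to 201 and 59.4 to 136. WT replicate 2 was the lowest WT library for the neuronal and the miR-9 sums, so leaving it out kept the WT libraries with the most of both. The 2 oligodendrocyte miRNAs summed to 19.3 to 21.5 CPM in WT and 22.6 to 32.7 in KIN, and the 3 erythroid miRNAs to 17.3 to 22.2 and 28.6 to 131. Their part in the result was not tested.

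In neurons KIN and WT could not be told apart for any arginine isodecoder, with 0 called, as for 0% of all features, and 2 at an unadjusted p under 0.05. The sum gave −0.33 ± 0.55 (edgeR adjusted p 0.93) with all libraries and 0.78 (edgeR adjusted p 0.406) without WT replicate 2, so that even its direction rested on that library. By anticodon the log2 fold change ran from −0.63 ± 0.62 for CCT over −0.50 for TCT, −0.28 for ACG and −0.23 for TCG to 0.06 ± 0.49 for CCG. The median was −0.34 over arginine isodecoders, beside −0.12 for all features and −0.42 for all tRNA isodecoders. The lowest isodecoders were TCT-4 (−2.62 ± 1.01) and CCT-3 (−2.24 ± 0.97) and the highest CCG-3 (0.30 ± 0.44) and TCG-4 (0.03 ± 0.82), with edgeR adjusted p from 0.864 to 0.995. CCT-3 stood at 8.26, 178 and 11.8 CPM in WT neurons and at 15.8, 9.48 and 18.1 in KIN neurons, and TCT-4 at 4.13, 121 and 10.5 and at 7.68, 10.3 and 4.54. In both, 1 WT library stood far above the other 5. Neuronal WT replicate 1 had 0 counts of TCG-4 and of TCT-2, which allows a level of up to 2.48 CPM (3 counts, counting error only). The 2 miR-9 miRNAs summed to 964 to 2265 CPM in WT and 2253 to 4079 in KIN neurons. For the 3 myeloid miRNAs the sums were 42.9 to 225 CPM in WT and 173 to 377 in KIN. The genotypes overlapped in both sums, and the part of these markers in the result was not tested.

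Whether the effect of KIN differed between fractions was tested in a fit of all 18 libraries. That fit treated the libraries as independent, although the study took the fractions in turn from single brains. No isodecoder was called for microglia minus astrocytes (0.261% of all features), neurons minus astrocytes (0%) or neurons minus microglia (1.42%), and 0, 5 and 5 had an unadjusted p under 0.05. In that order the arginine medians were 0.45, −0.73 and −1.17. Those of all tRNA isodecoders were 0.56, −0.58 and −1.17, and those of all features −0.11, 0.22 and 0.34. The summed arginine tRNA gave 0.41 ± 0.63, −0.79 ± 0.63 and −1.21 ± 0.63, with edgeR adjusted p of 0.979, 0.73 and 0.486. Without neuronal WT replicate 2 the contrasts with neurons were 0.37 and −0.047, and without microglia WT replicate 2 those with microglia were 1.13 (edgeR adjusted p 0.662, minus astrocytes) and −2.11 (edgeR adjusted p 0.0731, neurons minus microglia). Between microglia and astrocytes, the KIN effects differed by 0.91 ± 0.71 for ACG-1 and 0.90 ± 0.82 for ACG-2 at the upper end and by −0.04 ± 0.73 for TCG-4 and 0.06 ± 0.50 for TCT-3 at the lower end. CCT-3 had the lowest value in both contrasts with neurons, −2.29 ± 0.91 against astrocytes and −2.92 ± 0.92 against microglia (edgeR adjusted p 0.524 and 0.15), and without neuronal WT replicate 2 they became 0.51 and −0.12. The second was called without neuronal WT replicate 1 or 3 or microglia WT replicate 2, and its lowest edgeR adjusted p was 0.019.

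The share of each anticodon among arginine tRNA counts does not depend on the scale between libraries. In astrocytes CCG took 23.4%, 21.4% and 23.1% in WT and 26.7%, 25.7% and 27.7% in KIN, and ACG lay at 18.9%, 22.1% and 19.1% in WT and at 16.3%, 16.9% and 15.5% in KIN. Arginine as a share of all tRNA counts was 5.83%, 6.27% and 5.99% in WT and 7.04%, 7.25% and 7.33% in KIN astrocytes. Between WT microglia and WT astrocytes, TCG took 8.80% ± 0.17 against 11.7% ± 1.10 and TCT 18.2% ± 0.80 against 14.5% ± 0.30 (SD, n = 3 each). All these pairs reached 0.1, the smallest p that 3 against 3 libraries allow in a two-sided exact permutation test, and over the 36 shares tested the adjusted p was 0.277, so none passed.

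Genes that charge, modify, splice, transcribe or rescue arginine tRNA were hardly measured in these libraries of short RNA. All 46 nuclear genes of the list had a transcript in the table, but each had only 1 to 107 counts over the 18 libraries, with a median of 20. No nuclear gene of the list had a transcript that was tested in a comparison of KIN with WT in astrocytes or microglia, and Ssb-206, a transcript of the gene for the La protein, which protects new tRNA ends, was the only one tested in neurons (0.39 ± 0.81, edgeR adjusted p 0.947). The mitochondrial arginine tRNA, mt-Tr-201, read from the mitochondrial genome and charged by Rars2, was tested in every fit. It was lower in KIN astrocytes, at −0.41 ± 0.10 on the log2 scale (edgeR adjusted p 0.0382), opposite to the nuclear arginine sum, and gave 0.83 ± 0.24 in microglia (edgeR adjusted p 0.0678) and −1.24 ± 0.71 in neurons (edgeR adjusted p 0.864). Between WT fractions it was called lower than in astrocytes both in microglia (−2.05 ± 0.23, edgeR adjusted p 3.68e-05) and in neurons (−2.97 ± 0.75, edgeR adjusted p 0.016). The mitochondrial tRNAs moved so as a class. All 22 were called lower in WT microglia (median −2.09, 20.7% of all features) and 11 of 22 in WT neurons (median −2.41, 19.6%). In KIN against WT their medians were −0.26 in astrocytes, 0.52 in microglia and −1.28 in neurons.

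The features whose log2 level was most like the arginine sum over the 18 libraries were mostly other tRNAs or transcripts already named. Among features outside the tRNA rows, Gm57036-201 had a Pearson r of 0.996, Hes7-201 of 0.992 and Gm49507-201, a long intergenic RNA, of 0.989. Among isodecoders of other amino acids the highest were tRNA-Gln-TTG-1 (0.995), tRNA-Pro-CGG-1 (0.991) and tRNA-Asn-GTT-3 (0.990). Among the arginine isodecoders themselves r ran from 0.995 for CCT-4 down to 0.75 for CCG-1 and 0.218 for TCT-4. The 18 points share their groups, library totals and tRNA share, and these values are descriptions.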

How the data were processed

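Small RNA from 18 libraries (6 groups of 3) was measured with an adapter-ligation kit. Per the study's methods, the authors trimmed reads with Cutadapt 4.6, aligned them with Bowtie2 2.4.4 in local mode against miRNA, tRNA, piRNA, noncoding RNA and cDNA in turn (mm39), and counted with HTSeq 2.0.2 without strand and with no minimum mapping quality. The kit carries molecular identifiers, and whether they were collapsed is not given in the sources used here. The deposited table holds raw counts per feature, not normalized. Near-identical tRNA copies share reads, so counts of single isodecoders are uncertain. Its 36 further per-library columns and the authors' 15 comparison columns (log2 fold changes and p-values) were not used.

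Gene copies were summed per isodecoder, per anticodon and over arginine. The whole table was tested with edgeR 4.0.16 (quasi-likelihood, TMM scaling, R 4.3.3) on features that reached 5 counts in 2 or more libraries, with Benjamini-Hochberg adjustment over all of them. Calls needed an adjusted p no higher than 0.05 together with a log2 fold change of 1 or more in size. SE was taken from the log2 fold change and its F statistic. CPM were counts per 1000000 counts of the library. DESeq2 1.42.0, other scalings, no filter, a replicate block and leaving out each library were alternatives, and the steps were tested on simulated data. Markers and shares used Python 3.11.15. tRNA genes were located by a cloverleaf search of GRCm39 with GENCODE vM39 exons. Library totals were 1211118 to 4316748 counts and lowest in neurons.

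The members and lists were chosen with earlier results of these data known. Named were all anticodons, the called isodecoders, or the 2 highest and 2 lowest where none was called, the 3 most abundant, TCT-4, the most similar features and the listed arginine tRNA genes. Others, such as CCG-2, TCT-2, TCG-1 and the containing transcripts, were named after their values were seen.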

Additional observations from a re-analysis of the deposited data

How the results depend on the processing

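Values are log2 fold changes of edgeR or counts of arginine isodecoders called, and the cause of each change below was not tested. The neuronal libraries were the shallowest, with 1211118 to 2427384 counts, and 1 of them had 0 counts of TCG-4 and of TCT-2. The alternative with containing transcripts and that with KIN in place of WT libraries were chosen after seeing the data.

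In KIN against WT astrocytes, 5 isodecoders passed on the adjusted p alone, and scaling to mature miRNA gave 2 calls (both lower, where 26.5% of all features were called lower) and −0.18 for the sum, −0.13 for CCT-4 and −0.27 for TCT-1. In KIN against WT microglia, DESeq2 called 1 and no filter called 6, with a sum of 1.03 (adjusted p 0.00837). There TCT-4 was −0.83 under tRNA scaling, −0.18 under library totals and −0.43 under miRNA scaling, and TCG-4 was −0.29 under tRNA scaling. In KIN against WT neurons, no filter called 3, and tRNA scaling gave 0.12 for the sum, 0.19 for CCT-4 and 0.043 for TCT-1. Microglia against astrocytes in WT gave 7 calls under library totals and 5 with no filter, tRNA scaling gave 0.13 for TCT-1, and the KIN libraries gave 0.29 for TCT-1 and 0.054 for CCT-4. Neurons against astrocytes gave 8 calls by DESeq2, 0 under tRNA scaling, 9 with no filter and 18 in KIN, the sum was −0.85 under tRNA scaling and −1.59 under library totals (adjusted p 0.44 and 0.0503), and TCT-4 was −1.09 in KIN. Neurons against microglia gave 1 call under tRNA scaling and 1 under library totals, 5 with no filter and 17 in KIN, where the sum was −2.62.

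For the KIN effect in microglia minus astrocytes, tRNA scaling gave −0.023 for the sum, −0.45 for TCT-3, −0.31 for CCG-3, −0.037 for CCT-4 and −0.14 for TCT-4, and DESeq2 gave 0.10 for TCG-4. For neurons minus astrocytes tRNA scaling gave 0.25 for ACG-3, and for neurons minus microglia it gave 0.81 for TCG-4 and 0.20 for CCG-3, where DESeq2 called 1.

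Leaving out 1 library at a time gave 0 to 2 calls in astrocytes (2 without WT replicate 2), 0 to 17 in microglia, 3 to 13 in WT microglia against astrocytes, 1 to 18 in WT neurons against astrocytes, 0 to 14 in WT neurons against microglia and 0 to 4 for the KIN effect in neurons minus microglia (4 without neuronal WT replicate 1, 2 without microglia WT replicate 2, 1 without neuronal WT replicate 3). The sum ran from 0.76 to 1.66 in KIN against WT microglia, −0.78 to 0.78 in KIN against WT neurons, −1.16 to −0.20 in WT microglia against astrocytes, −2.98 to −1.25 in WT neurons against astrocytes, −2.31 to −0.63 in WT neurons against microglia and −1.27 to 0.37 for the KIN effect in neurons minus astrocytes. In KIN against WT, TCT-4 ran from −0.17 to 0.31 in microglia, and in neurons CCT-4 ran from −0.59 to 0.77, TCT-1 from −0.76 to 0.71, CCG-3 from −0.10 to 0.76, TCG-4 from −0.51 to 1.09 and CCT-3 from −2.75 to 0.47. In WT, TCT-1 ran from −0.83 to 0.082 in microglia against astrocytes and TCT-4 from −1.55 to 1.75 in neurons against astrocytes. For the KIN effect in microglia minus astrocytes TCG-4 ran from −0.22 to 0.41, TCT-3 from −0.14 to 0.61 and CCG-3 from −0.15 to 0.82. For neurons minus astrocytes ACG-3 ran from −0.92 to 0.75, CCG-3 from −0.87 to 0.061, CCT-3 from −2.81 to 0.51, CCT-4 from −1.15 to 0.28, TCT-1 from −1.14 to 0.42 and TCT-4 from −2.66 to 0.58. For neurons minus microglia TCG-4 ran from −1.06 to 0.71 and TCT-4 from −3.17 to 0.12.

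The deviations of libraries with the same number had a correlation over 0.1 in at most 2 of the 3 pairs of any comparison (2 in WT microglia against astrocytes), and the labels do not tie numbers to brains, so the numbers were not taken as pairs. In the 3 comparisons between WT fractions 4, 5 and 3 of 6 libraries correlated best with their own number. With the number as a replicate block, 7 isodecoders were called in WT microglia against astrocytes, 14 in WT neurons against astrocytes, 9 in WT neurons against microglia (sum −1.52, adjusted p 0.00264) and 1 for the KIN effect in neurons minus microglia. In KIN against WT astrocytes, 9 isodecoders passed on the adjusted p alone with the block. The block gave 0.13 for the sum, 0.17 for CCT-4 and 0.021 for TCT-1 in KIN against WT neurons, 0.046 for TCG-4 in the KIN effect of microglia minus astrocytes and 0.015 for ACG-3 in that of neurons minus astrocytes.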
